A study of Mus musculus with 20 samples.

Results

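Ribosome-bound RNA was set against the RNA of the whole lysate in the cortex of mice with a heterozygous Foxp2 deletion. The libraries were chosen by their labels: heterozygous animals with both fractions, which gave 6 of the 20 libraries of the series, in 3 pairs (animals het729, het786 and hetBT13). The animals were C57BL/6 mice aged 3 months, each library came from 1 animal, and both fractions of an animal came from the same lysate. The hemispheres were lysed after removal of hippocampus, basal ganglia, diencephalon and a piece at the rostral end of the cortex. A portion of cleared lysate was kept as Input, and the remainder went to beads carrying an antibody against GFP, the fraction called IP. The same fractions of 5 wild-type animals of the same strain and age served as the genotype comparison. The sources used here name neither the cells whose ribosomes carry GFP nor what drives the deletion.

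In translating ribosome affinity purification (bacTRAP), a ribosomal protein fused to GFP is made in chosen cells, and pulling on the tag recovers the messenger RNAs those cells' ribosomes hold. RNA that sits outside cytosolic ribosomes, such as the RNA made inside mitochondria or kept in the nucleus, belongs to the lysate and not to the tagged ribosomes. Foxp2 encodes a forkhead transcription factor that in the cortex marks mainly neurons of layer 6, many of which send axons to the thalamus. In a bulk sample, fewer cells of a type and less RNA per cell cannot be told apart, and this holds for every cell type described here.

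Total counts were 4917886 to 5337469 in the heterozygous IP libraries and 2782934 to 4072270 in their Input libraries. The first principal component, with 53.3% of the variance over the 16 libraries of both genotypes, parted the fractions: Input libraries lay at 38.07 to 46.19, and IP libraries at -53.21 to -38.36 apart from that of het729. The IP of het729 lay at -20.93, nearer to the lysates than any other IP library. Its ratios to Input were also more compressed, with an SD over genes of 0.58 on the log2 scale against 0.81 in het786, 0.79 in hetBT13 and 0.66 to 0.74 in the wild types. Values without het729 are therefore given too, beside some but not all single results and, for the gene lists, before the plot of list medians.

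Foxp2 itself (ENSMUSG00000029563, chromosome 6, 14901349 to 15441977 in mm10, plus strand) was measured first. It was at 52.9, 56.8 and 32.4 CPM (read counts relative to the library total, after TMM scaling) in the IP of het729, het786 and hetBT13, and at 24.5, 29.2 and 31.5 CPM in their Input. The means were 47.4 ± 13.1 and 28.4 ± 3.57 CPM (SD, n = 3). All 3 animals were higher in IP, but the margin in hetBT13 was small. The log2 fold change was 0.73 (SE 0.33), and Foxp2 missed the threshold with edgeR (adjusted p = 0.0994), as it did without het729 (log2 0.52). Without a block for the animal, with limma-voom, with library totals, without the low-count filter, in the 6 heterozygous libraries alone and with further Input libraries added, it passed, at log2 values from 0.73 to 0.9955. Reads of all exons enter the count, so shortened transcripts from a deleted allele would be included, and the gene's level does not show by itself that the deletion took place.

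The comparison asked which RNAs the tagged ribosomes held more or less of than the tissue. Of 14797 genes tested, 6622 passed at an adjusted p below 0.05 (edgeR, quasi-likelihood, animal as block): 3348 were higher in IP (22.6%) and 3274 lower (22.1%). The counts of list members called below are to be read beside these shares of 22.6% and 22.1%. Changes of at least 2-fold were found among the 6622 in 751 higher and 1039 lower genes. In 6518 of the 6622 the 3 animals moved the same way. Without het729, 5871 genes passed. Scaling by library totals in place of TMM shifted the median of all genes by 0.26 on the log2 scale, and turned the split of calls from 50.6% higher to 75.2% higher, so directions below are relative to the bulk of genes (median log2 of 0.04), and each list median given here that changes sign with it is marked.

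Genes of layer 6 corticothalamic neurons were the highest of the cell type lists in IP. Of 11 members tested, 9 were called higher and 0 lower (median log2 of 0.78, against 0.04 over all genes; 22.6% of all genes were called higher). Foxp2 and the synaptotagmin gene Syt6 (log2 0.49, SE 0.25, adjusted p = 0.141) were the members not called, and Col5a1 did not pass the filter on low counts. Per animal the list medians were 0.96 in het729, 0.88 in het786 and 0.66 in hetBT13. Without het729, 8 were called, with a median of 0.70.

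Ntsr1 (ENSMUSG00000027568, chromosome 2, 180499976 to 180544980, plus strand), the neurotensin receptor gene used to mark corticothalamic neurons of layer 6, had the largest change among them. It was at 34.9, 42.6 and 37.8 CPM in IP and at 4.26, 1.99 and 3.27 CPM in Input of het729, het786 and hetBT13. Every IP value lay above every Input value, a fold of 11.7 (log2 3.55, SE 0.24, adjusted p = 8.05e-10). Tle4 (ENSMUSG00000024642, chromosome 19, 14448150 to 14598051, minus strand), a corepressor gene of deep-layer neurons, was at 138, 132 and 110 CPM in IP against 53.2, 52.8 and 52.7 in Input (log2 1.26, SE 0.12, adjusted p = 5.29e-08). Its Input values were almost the same in the 3 animals. Sla, which encodes a Src-like adaptor, was 3.21-fold higher, and the transcription factor genes Tbr1 and Fezf2 were 1.84-fold and 1.80-fold higher.

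Layer 6b genes went both ways. Of 9 tested, 4 were higher and 3 lower, with a median log2 of 0.45 (over all genes, 22.6% were higher and 22.1% lower). Cplx3, a complexin gene typical of layer 6b, was at 189, 224 and 127 CPM in IP against 69.2, 74.1 and 63.3 in Input (log2 1.36, SE 0.13), and Trh, which encodes the precursor of thyrotropin-releasing hormone, was 3.71-fold higher. Ccn2 and Nr4a2 were the other two called higher, at log2 values of 0.73 and 0.45. Drd1, the gene of a dopamine receptor, went down: it was at 46.1, 17.1 and 25.7 CPM in IP and at 62.0, 36.6 and 51.1 in Input (log2 -0.80, SE 0.15, adjusted p = 0.000173). IP was below Input in each animal, although the IP of het729 lay above the Input of het786. Lpar1 and Moxd1 were lower by 3.90-fold and 3.20-fold.

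Other cortical layers were not raised as lists (over all genes, 22.6% were called higher and 22.1% lower). Upper layer genes had 3 higher and 6 lower of 12 (median -0.62), with Calb1, the calbindin gene, at 208, 192 and 226 CPM in IP against 424, 505 and 518 in Input (log2 -1.21, SE 0.10), and Cux1 1.74-fold lower. Rasgrf2 and Lhx2 were among the members called higher. Layer 5 genes had 3 higher and 5 lower of 12, with a median of -0.07 that turned to 0.20 under library totals. Etv1 was 2.48-fold lower and Crym, also on the layer 6 list, 1.60-fold higher. Markers of glutamatergic neurons in general had 8 higher and 3 lower of 12 (median 0.42). Their summed level went the other way, at 3511 to 3597 CPM in IP against 4592 to 5049 in Input. Slc17a7, the vesicular glutamate transporter of most cortical excitatory neurons, was at 144, 140 and 142 CPM in IP against 106, 117 and 87.8 in Input (log2 0.45, SE 0.12, adjusted p = 0.00291), and Slc17a6, its relative of thalamic and some cortical neurons, was 2.14-fold higher. Neurod2 was 1.89-fold higher, while Arpp21, Nrgn and Camk2a were lower by 2.30-fold, 1.78-fold and 1.54-fold.

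Most genes of inhibitory neurons were lower in IP. Of 20 tested, 14 were called lower and 1 higher (median -1.29; 22.1% of all genes were called lower), and their summed level was 1014 to 1200 CPM in IP against 2434 to 2695 in Input. Pvalb, the parvalbumin gene of fast-spiking cells, was at 25.1, 13.3 and 15.9 CPM in IP against 160, 172 and 104 in Input, a level 7.99-fold lower (log2 -3.00, SE 0.24, adjusted p = 1.27e-06). Sst and Vip, which encode neuropeptides of other interneuron classes, were lower by 3.78-fold and 4.15-fold. The enzymes that make GABA changed least among the genes named: Gad1 was 1.502-fold and Gad2 1.34-fold lower. Reln, which encodes the secreted protein reelin, was the member called higher, at 50.4, 64.7 and 70.6 CPM in IP against 15.97, 17.9 and 11.8 in Input (log2 1.98, SE 0.17, adjusted p = 2.06e-08). Without het729, 14 were called lower and 1 higher, and the median was -1.48.

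Neuropeptide genes, many of which belong to the same interneurons, had 12 lower and 3 higher of 20 (median -0.70). Over all genes, 22.1% were lower and 22.6% higher. Without het729 the list had 10 lower and 1 higher. Npy was at 54.3, 31.1 and 39.9 CPM in IP against 270, 331 and 253 in Input, 6.85-fold lower, and Cck was 2.51-fold lower. Trh, Nppc and Scg3 were the genes called higher. Penk, the enkephalin precursor gene, was 2.88-fold lower.

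Genes of dopamine receptor signalling were lower in 9 of 11 and higher in 0, against 22.1% lower and 22.6% higher over all genes. Their median was -0.80, and under library totals 5 were lower and 0 higher. Ppp1r1b, which encodes the phosphatase inhibitor DARPP-32, was at 431, 233 and 244 CPM in IP against 993, 960 and 896 in Input (log2 -1.71, SE 0.13, adjusted p = 4.22e-09). Gng7, a G protein subunit gene, was 3.18-fold lower and Arpp19 2.09-fold lower. Genes typical of the striatum, which the dissection removed in the main, were present in both fractions and went with them. Of 13 tested, 11 were lower and 0 higher, with a summed level of 963.6 to 1468 CPM in IP against 2724 to 2849 in Input. Adora2a, the adenosine receptor gene of striatal output neurons, was at 39.5, 11.2 and 20.7 CPM in IP against 103, 68.5 and 93.2 in Input. The part of striatal RNA in the dopamine list was not tested.

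Glial and blood genes were lower in IP in nearly every list member that passed (over all genes, 22.1% were called lower and 22.6% higher). Astrocyte genes had 15 lower and 1 higher of 16 (median -1.12; summed level 1443 to 1797 CPM in IP, 3102 to 3587 in Input). S100b was at 26.7, 21.6 and 23.1 CPM in IP against 90.2, 89.1 and 75.2 in Input (log2 -1.83, SE 0.13, adjusted p = 1.08e-09), Apoe was 4.33-fold and Gfap 2.59-fold lower, and Aldh1l1, an enzyme of folate metabolism, was 1.62-fold higher. Oligodendrocyte genes had 11 lower and 0 higher of 14 (median -1.75; 1070 to 1635 CPM against 4130 to 5581). The myelin gene Mal was at 44.3, 40.0 and 54.4 CPM in IP against 147, 246 and 253 in Input (log2 -2.19, SE 0.15, adjusted p = 2.52e-09), and Mog was 4.25-fold lower. Olig1, of the oligodendrocyte lineage, was 5.07-fold lower, and 4 of 8 precursor genes were lower with 0 higher. Microglial genes had 11 lower and 0 higher of 15 (median -1.10; 87.78 to 130.1 CPM against 212.4 to 236.6), with the complement gene C1qb at 9.26, 4.502 and 8.11 CPM against 34.3, 38.5 and 30.6. No defining marker of these 3 mature glial types was at 0 in IP.

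**Figure D1:**
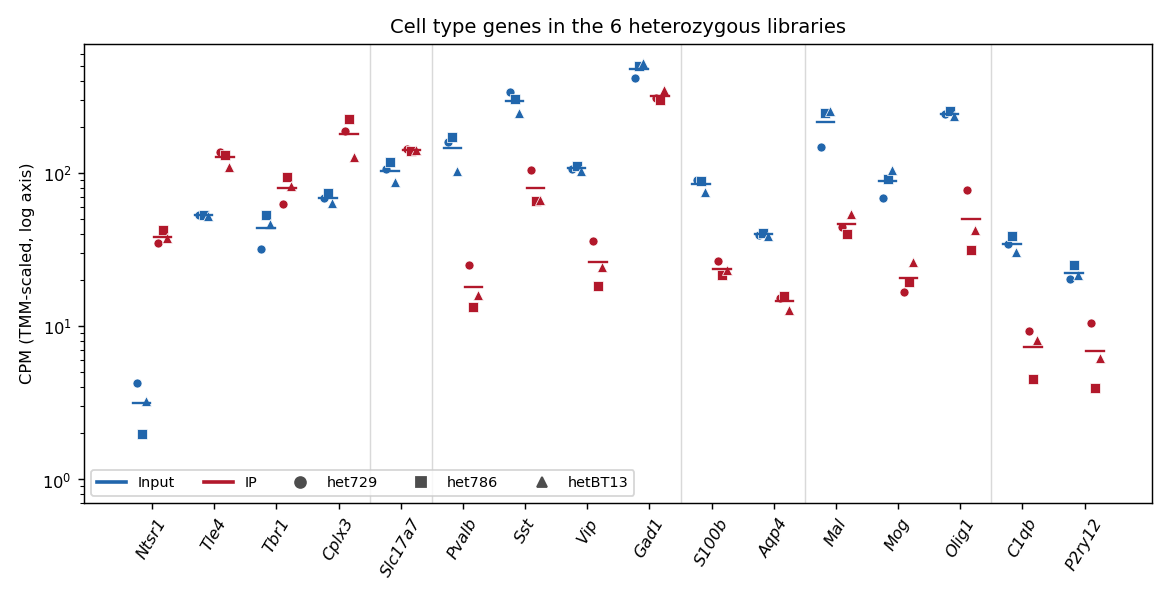
Level of 16 cell type genes (CPM, log axis) in the 3 Input (blue) and 3 IP (red) libraries of heterozygotes, with symbols for the animals and short lines at the group means; from left to right layer 6, glutamatergic, inhibitory, astrocyte, oligodendrocyte and microglial genes. Ntsr1, Tle4, Tbr1 and Cplx3 had higher means in IP than in Input, and all 11 genes from Pvalb to the right had lower ones. The genes are a selection, so this split is not a result for whole lists. Members called the other way are not drawn: Reln and Aldh1l1 (higher), and Drd1, Lpar1, Moxd1, Arpp21, Nrgn and Camk2a (lower).

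Vessel and fluid-contact genes were thinly covered (over all genes, 22.6% were called higher and 22.1% lower). Of 13 endothelial genes 5 passed the filter, with Egfl7 higher and Bsg and Cldn5 lower (median -0.05, which turned to 0.21 under library totals). Each of these calls ended in some alternative: that of Egfl7 with DESeq2 (adjusted p = 0.0536), without het786 (0.0765 with edgeR) and without hetBT13 (0.112), that of Cldn5 without het786 (0.0551) and without hetBT13 (0.0587), and that of Bsg under library totals (0.19). Mural cell genes had 4 lower and 0 higher of 7 (median -0.79). Among them was the actin gene Acta2 (log2 -2.26, but -3.11 without het729 and -1.67 without hetBT13). Higd1b had a larger change (log2 -4.11) but rested on 0, 0 and 0.518 CPM in IP. The call of Vtn ended without het729, without het786 and under library totals, and that of Rgs5 without hetBT13. The transthyretin gene Ttr, of choroid plexus, was at 0.89, 10.3 and 5.18 CPM in IP against 2.66, 105 and 28.2 in Input, so the animals differed by more than the fractions did in het729. Blood genes had 6 lower and 0 higher of 7 (median -3.05; -3.87 without het729). The haemoglobin gene Hba-a1 was at 836 CPM in the Input of het729 and at 121 and 135 in the other Input libraries, and IP was lower within each animal, at 138, 7.32 and 10.3 CPM.

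Hippocampal genes had 1 higher and 3 lower of 8, and thalamic genes 3 and 3 of 9 (22.6% and 22.1% over all genes). Dsp, a desmosomal gene, had 0 counts in all 3 Input libraries and 0.89, 0.938 and 2.42 CPM in IP, and its call ended without hetBT13 (adjusted p = 0.0511 with edgeR) and without the animal block (0.0792). Lef1 and Ramp3, both listed as thalamic, were 3.82-fold and 3.34-fold higher, while Rora was 1.95-fold lower.

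RNA that cytosolic ribosomes do not translate was low in IP. All 15 mitochondrially encoded genes tested were lower (median -3.79; -4.86 without het729), and 0 were higher. Their share of all counts was 0.398% in the IP of het729 (95% exact Clopper-Pearson interval 0.393% to 0.403%), 0.0616% (0.0594% to 0.0638%) in het786 and 0.0694% (0.0672% to 0.0716%) in hetBT13, against 1.42%, 1.58% and 1.40% in Input. These intervals cover counting error only. The Input share was 3.57 times the IP share in het729, 25.6 times in het786 and 20.2 times in hetBT13. Means were 0.176% ± 0.192 and 1.47% ± 0.0965 (SD, n = 3), and an exact paired permutation test gave p = 0.25 (two-sided), the smallest that 3 pairs allow. In the 5 wild-type IP libraries the share was 0.0664% to 0.127%.

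mt-Cytb (ENSMUSG00000064370, chromosome M, 14145 to 15288, plus strand), which encodes a subunit of respiratory complex III, was at 610, 58.1 and 84.9 CPM in IP against 2391, 2865 and 2787 in Input. The IP of het729 held more of it than the other two IP libraries, and every IP value was below every Input value. The log2 fold change was -4.25 (SE 0.80, adjusted p = 0.00572), -5.34 without het729 and -3.46 without het786. The mitochondrial ribosomal RNA genes mt-Rnr1 and mt-Rnr2 had log2 values of -4.14 and -3.69. In the 6 heterozygous libraries alone these genes missed the threshold, at nearly the same log2 values (-4.27 for mt-Cytb, adjusted p = 0.122 with edgeR).

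The RNA of the signal recognition particle, 7SL, was among the lowest of the genes named. Rn7s1 (ENSMUSG00000099021, chromosome 12, 69159295 to 69159594, plus strand) was at 56.3, 2.44 and 2.07 CPM in IP and at 495, 599 and 395 CPM in Input. The IP of het729 again lay above the other two, while every IP value was below every Input value (log2 -5.22, SE 0.93, adjusted p = 0.00449; -7.77 without het729, -4.41 without het786). Rn7s2 and Rn7s6 had log2 values of -5.21 and -4.68 (-7.90 and -8.04 without het729). In the 6 heterozygous libraries alone the 3 genes had nearly the same log2 values (-5.34, -5.31 and -4.70) but were not called with edgeR (adjusted p = 0.107 for Rn7s1, 0.102 for Rn7s2 and 0.102 for Rn7s6). The 3 copies are nearly identical, so which copy a read came from is uncertain.

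Cdr1 (ENSMUSG00000090546, chromosome X, 61184005 to 61185558, minus strand) was at 251, 6.19 and 14.2 CPM in IP against 964, 968 and 944 in Input. Its log2 fold change was -4.77 (SE 1.11, adjusted p = 0.0138), -6.58 without het729, and without het786 or hetBT13 (-3.69 and -3.94) it was not called, nor was it in the 6 heterozygous libraries alone (log2 -4.89, adjusted p = 0.166 with edgeR). The libraries do not keep strand, and the locus also gives a well-known circular RNA from the opposite strand, so counts of the 2 strands cannot be told apart.

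Long noncoding RNAs of the nucleus had 6 lower and 0 higher of 7 tested (median -2.05). Meg3, an imprinted noncoding RNA, was at 241, 84.6 and 153 CPM in IP against 756, 598 and 695 in Input (log2 -2.20, SE 0.20, adjusted p = 1.87e-06), and Rian, Miat and Snhg11 were 5.54-fold, 4.14-fold and 3.96-fold lower. By annotated class, 13 of 14 miRNA genes and 8 of 8 genes of the class misc_RNA, which holds 7SL, were lower. Noncoding genes as a whole were not: of 155 lincRNA genes 34 were lower (21.9%) and 21 higher, with a median of -0.07. Antisense genes had 15 lower and 10 higher of 126, and processed transcripts 21 lower and 13 higher of 119. Over all genes, 22.1% were called lower and 22.6% higher. Of 1497 processed pseudogenes 668 were lower (44.6%) and 33 higher, but these copies share sequence with their parent genes, and which of them the reads came from is uncertain. Protein-coding genes leaned the other way, with 3240 higher and 2418 lower of 12567. Host genes of small nucleolar RNAs, which are spliced RNAs reached by ribosomes, had 0 higher and 1 lower of 9, the latter being Gas5 (2.25-fold lower).

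Most cytosolic ribosomal protein genes, 56 of 79, were lower in IP, whereas of 60 mitochondrial ribosomal protein genes 25 were higher, 3 lower and 32 not called. Messenger RNAs of cytosolic ribosomal proteins typically begin with a C followed by a run of pyrimidines, the 5′ terminal oligopyrimidine (TOP) start, by which growth signals set how many ribosomes they carry. To show that start, the bases around the annotated start of 4 ribosomal protein genes called lower are printed with those of 2 mitochondrial ribosomal protein genes called higher, from RefSeq on GRCm38.p6, 20 bases before the start and 10 from it. Capitals mark the first 5 transcribed bases.
Fau: ggacgtgcgcgcccccacttCTTCCtcttt
Rpl14: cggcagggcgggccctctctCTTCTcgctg
Rps6: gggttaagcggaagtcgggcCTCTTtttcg
Rpl15: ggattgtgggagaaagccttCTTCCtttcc
Mrps27: tccccccacgcccgccttccACTTGgtgcg
Mrpl21: tgacgcacaaggttcgcgctGCTTCcgctt
The windows are chr19:6057927-6057956 (plus strand) for Fau, chr9:120571497-120571526 (plus) for Rpl14, chr4:86857358-86857387 (minus) for Rps6, chr14:18270977-18271006 (minus) for Rpl15, chr13:99344766-99344795 (plus) for Mrps27 and chr19:3283022-3283051 (plus) for Mrpl21. Each RefSeq start lies in an exon and UTR of GENCODE M21. In Mrps27 it is the first base of the GENCODE gene, while in Fau, Rpl14, Rps6, Rpl15 and Mrpl21 it lies 103, 73, 45, 405 and 141 bases inside the gene's GENCODE boundary. The 4 cytosolic genes begin with C and 4 pyrimidines, by which they were chosen, and the 2 mitochondrial ones do not.

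Over all promoters of the table, 823 of 32851 (2.505%) had C and then 4 pyrimidines (C or T) at the annotated start, read on the transcribed strand and at that position alone. Of cytosolic ribosomal protein promoters 14 of 68 (20.6%) had it, and of mitochondrial ones 0 of 55. Annotated starts can be off by some bases, and no match says only that these letters are not at that position. Among 58 of the 79 cytosolic ribosomal protein genes with an entry, the 14 with such a start had 10 lower and 0 higher (median -0.57), close to the list as a whole. Among other tested genes, 292 of 10119 had it, of which 65 were higher and 65 lower (median 0.07).

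Of 79 cytosolic ribosomal protein genes, 56 were lower and 0 higher (median -0.60; 22.1% of all genes were lower), and per animal the medians were -0.58, -0.68 and -0.49. Under library totals 36 were lower and 2 higher (median -0.34), and without het729 47 were lower. Rpl4 (ENSMUSG00000032399, chromosome 9, 64173375 to 64178666, plus strand) was at 364, 248 and 241 CPM in IP against 710, 775 and 746 in Input (log2 -1.41, SE 0.13, adjusted p = 3.62e-08). Fau (ENSMUSG00000038274, chromosome 19, 6057844 to 6059524, plus strand), which encodes a ubiquitin-like protein fused to a small-subunit protein, was at 76.9, 56.5 and 58.7 CPM against 154, 134 and 119 (log2 -1.09, SE 0.12, adjusted p = 3.34e-07). In both, every IP library lay below every Input library. Rpl14, Rps6 and Rpl15, whose starts are shown, were lower by 1.81-fold, 1.58-fold and 1.42-fold.

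Of 60 mitochondrial ribosomal protein genes, 25 were higher and 3 lower (median 0.20; 22.6% of all genes were higher; 44 higher and 0 lower under library totals). These proteins are made in the cytosol and imported. Mrpl21 (ENSMUSG00000024829, chromosome 19, 3282901 to 3292837, plus strand) was at 63.0, 63.6 and 63.7 CPM in IP against 37.8, 39.5 and 20.8 in Input (log2 0.96, SE 0.16, adjusted p = 5.54e-05), and Mrps27 was 1.93-fold higher. Mrpl39 was 1.65-fold higher, and Mrpl38 was higher by 0.59 on the log2 scale.

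Translation factor genes went both ways (over all genes, 22.6% were called higher and 22.1% lower). Of 47, 12 were higher and 19 lower, with a median of -0.15 that turned to 0.12 under library totals (19 higher, 9 lower). The elongation factor gene Eef1a1, also a TOP gene, was at 311, 185 and 220 CPM in IP against 714, 742 and 706 in Input (log2 -1.63, SE 0.14, adjusted p = 3.26e-08), and Eif5a and Eif1 were 1.97-fold and 1.73-fold lower. Eif3a, the large subunit of the initiation factor that binds the small ribosomal subunit, was at 140, 188 and 192 CPM in IP against 84.4, 108 and 108 in Input (log2 0.79, SE 0.11, adjusted p = 9.11e-06). Of 18 stress response genes and Atf4 targets 1 was higher and 6 lower, with a median of -0.15 (0.12 under library totals). Atf4, whose translation is set by upstream reading frames, was 1.501-fold lower, and Nupr1, a target of it, was at 2.49, 0.563 and 1.38 CPM in IP against 12.2, 11.3 and 8.58 in Input. Eif2ak3, the gene of an endoplasmic reticulum stress kinase, was the member called higher (log2 1.54).

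**Figure D2:**
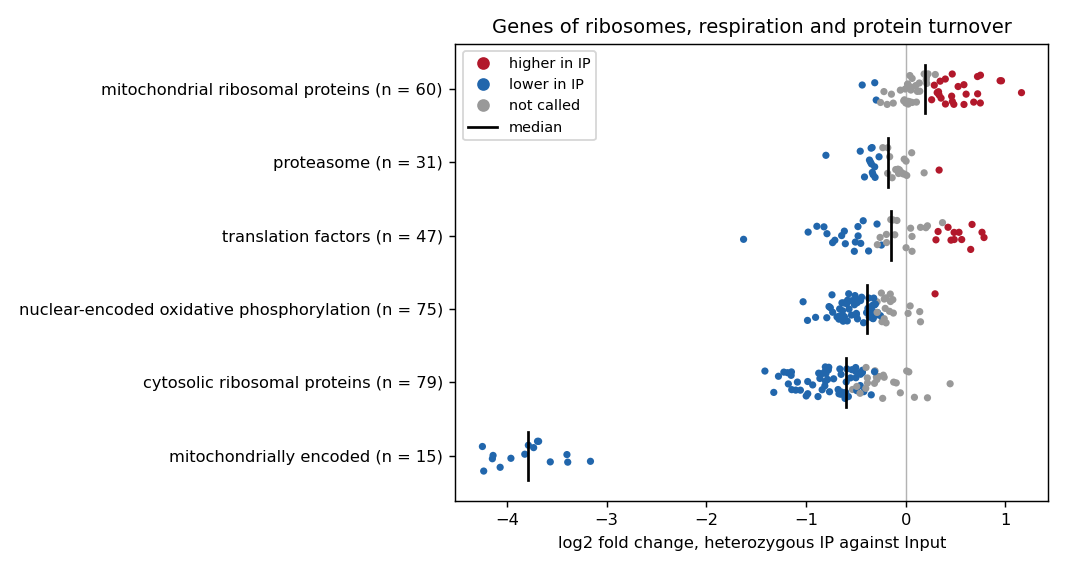
Log2 fold change of IP against Input in heterozygotes (horizontal axis) for each tested gene of 6 lists, red where called higher, blue where called lower and grey where not called, with a black line at each median; the vertical spread within a list carries no value. All 15 mitochondrially encoded genes lie below the other lists, cytosolic ribosomal proteins have a median of -0.60 and mitochondrial ribosomal proteins one of 0.20.

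Nuclear genes of oxidative phosphorylation were lower in 55 of 75 and higher in 1, Ndufs1 (median -0.39; 28 lower and 4 higher under library totals, median -0.13). They encode the imported partners of the mitochondrially encoded subunits, and their median was far less negative than the -3.79 of those. Atp5j, of the ATP synthase, was at 303, 218 and 221 CPM in IP against 526, 551 and 428 in Input (log2 -1.03, SE 0.11, adjusted p = 2.19e-07). The cytochrome oxidase genes Cox8a, Cox7c and Cox6a1 were lower by 1.98-fold, 1.87-fold and 1.73-fold. Cholesterol synthesis genes had 9 higher and 5 lower of 24 (median 0.22), and 15 higher and 2 lower under library totals. For both lists, the shares over all genes were 22.6% called higher and 22.1% called lower.

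Genes of axon guidance and synaptic adhesion were called higher more often than lower. Of 43 guidance genes, 22 were higher and 1 lower, Efnb3 (median 0.52; 22.6% of all genes were higher). Nrp1, a semaphorin coreceptor gene, was at 57.2, 58.3 and 46.6 CPM in IP against 18.1, 15.6 and 11.03 in Input (log2 1.85, SE 0.17, adjusted p = 2.69e-08). Slit1, a secreted repellent, was 2.99-fold higher, the netrin receptor gene Unc5a 2.41-fold, and the semaphorin genes Sema4a and Sema3e 2.20-fold and 2.14-fold. Of 37 adhesion genes, 21 were higher and 5 lower (median 0.45). Tenm2, a teneurin, was at 61.8, 70.2 and 100 CPM in IP against 19.7, 13.6 and 16.8 in Input (log2 2.16, SE 0.19, adjusted p = 1.99e-08), and the secreted synapse organisers Cbln4 and Cbln1 were 3.54-fold and 6.94-fold higher.

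Glutamate receptor and voltage-gated channel genes had more members called higher than lower, and GABA receptor genes did not (22.6% of all genes were called higher and 22.1% lower). Glutamate receptor genes had 12 higher and 4 lower of 32 (median 0.44), with the NMDA receptor gene Grin1 at 75.5, 98.8 and 88.8 CPM in IP against 46.3, 60.5 and 58.8 in Input (log2 0.67, SE 0.10, adjusted p = 2.78e-05), and Grid1 and Grik3 2.04-fold and 1.98-fold higher. Voltage-gated channel genes had 19 higher and 9 lower of 52 (median 0.29). The presynaptic and dendritic calcium channel genes Cacna1b and Cacna1e were 1.97-fold and 2.13-fold higher, and Kcnc2, a potassium channel gene of fast-spiking cells, 1.85-fold lower. GABA receptor genes had 3 higher and 5 lower of 17, with a median near 0 (-0.0096) that was 0.26 under library totals and 0.019 without het786. Gabbr2, of the metabotropic receptor, was 1.58-fold higher, and Gabra4, of the channel receptor, was 1.60-fold lower.

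Presynaptic and postsynaptic genes were mixed (over all genes, 22.6% were called higher and 22.1% lower). Of 40 presynaptic genes 11 were higher and 15 lower, with a median of -0.16 that turned to 0.10 under library totals. Among them Unc13a and Synj1, which prime and recycle vesicles, were 2.27-fold and 2.31-fold higher, whereas Vamp1, a SNARE gene, was at 196, 175 and 172 CPM in IP against 405, 500 and 556 in Input (log2 -1.42, SE 0.13, adjusted p = 2.95e-08). Snap25, another SNARE gene, was 2.15-fold lower. Apba2, which encodes an adaptor of the presynaptic terminal, was not called (log2 -0.14, SE 0.10, adjusted p = 0.277), nor was Cntnap2, an adhesion gene and Foxp2 target in earlier work (log2 -0.15, SE 0.15, adjusted p = 0.45). Postsynaptic scaffold genes had 13 higher and 6 lower of 34 (median 0.08, and -0.012 with upper quartile scaling), with Lrrc7 at 33.5, 81.2 and 66.8 CPM in IP against 13.3, 16.6 and 15.1 in Input (log2 1.93, SE 0.21, adjusted p = 7.05e-07), and Magi2 and Kalrn 2.79-fold and 1.84-fold higher.

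Genes of the giant linker list, which also holds giant ubiquitin ligases, were mostly higher among those called. Plec (ENSMUSG00000022565, chromosome 15, 76170974 to 76232574, minus strand), which encodes the giant linker plectin, was at 111, 162 and 202 CPM in IP against 21.02, 22.3 and 25.7 in Input (log2 2.74, SE 0.14, adjusted p = 1.49e-11). Giant linkers had 15 higher and 3 lower of 25 (median 0.41). Their summed level went the other way, at 3931 to 4098 CPM in IP against 4259 to 4995 in Input. The ankyrin gene Ank2 was 2.22-fold and the ubiquitin ligase gene Herc1 2.06-fold higher, while the microtubule-associated genes Map2, Map1b and Mapt were the members called lower, by 2.19-fold, 1.75-fold and 1.45-fold. In the spliceosome, 8 of 34 were higher and 5 lower, with a median of -0.04 (0.22 under library totals). Over all genes 22.6% were called higher and 22.1% lower, so the list as a whole was near the background. The members described next were all among those called higher. Prpf8 (ENSMUSG00000020850, chromosome 11, 75486816 to 75509449, plus strand), which codes for the large core protein, was at 150, 198 and 245 CPM in IP against 31.7, 42.2 and 43.7 in Input (log2 2.32, SE 0.12, adjusted p = 1.49e-11). Its partners Snrnp200 and Eftud2 were 3.41-fold and 1.88-fold higher.

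Chromatin regulators linked to autism had 10 higher and 0 lower of 21 (median 0.46; 22.6% of all genes were higher and 22.1% lower). Kdm5b, a histone demethylase gene, was at 54.3, 104 and 100 CPM in IP against 24.2, 29.2 and 23.7 in Input (log2 1.68, SE 0.16, adjusted p = 4.74e-08), and Ash1l and Bcl11a were 1.64-fold and 1.47-fold higher. Tubulin genes had 9 lower and 0 higher of 14 (median -0.38; 5 lower and 1 higher under library totals), among them Tuba1c at 1.503-fold, Tubb4a at 1.496-fold and Tubb6 at 2.30-fold. Motor genes had 8 in each direction of 30, with a median of 0.09 that was -0.0044 with upper quartile scaling. The kinesin genes Kif2a and Kif21a were 1.83-fold and 1.66-fold higher, and Kif5a was 2.47-fold lower. Proteasome genes had 1 higher, Psma3, and 13 lower of 31, with a median of -0.18 that became 0.09 under library totals (8 higher, 1 lower). Chaperone genes had 7 higher and 9 lower of 25, with a median of -0.22 that became 0.04 under library totals. Hspa4l was 1.90-fold higher and Dnajb6 1.54-fold lower.

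Immediate early genes, which report recent activity, had 5 higher and 2 lower of 19 (median 0.27). Over all genes 22.6% were called higher and 22.1% lower. Under library totals 12 members were higher and 0 lower. Nr4a3 was at 6.41, 8.07 and 8.97 CPM in IP against 1.60, 4.32 and 2.86 in Input (log2 1.44, SE 0.33, adjusted p = 0.00132). Egr1 was 1.43-fold lower, and it was not called without hetBT13 (log2 -0.38), with library totals (-0.25) or without the animal block (-0.51).

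Without het729, 15 of the 46 lists had the same counts of calls, and no list median changed sign. Of the cell type lists, layer 6b went from 4 to 3 higher, layer 5 from 5 to 4 lower and glutamatergic neurons from 8 to 6 higher. Astrocytes went from 15 to 14 lower, microglia from 11 to 9 lower and mural cells from 4 to 3 lower. Mitochondrial ribosomal proteins went from 25 to 21 higher and from 3 to 1 lower, translation factors from 12 to 10 higher and from 19 to 17 lower, and oxidative phosphorylation from 55 to 51 lower. Stress genes went from 6 to 5 lower, snoRNA hosts from 0 to 1 higher, and cholesterol synthesis from 9 to 7 higher and from 5 to 4 lower. Giant linkers went from 15 to 12 higher, voltage-gated channels from 19 to 16 higher and from 9 to 8 lower, and postsynaptic scaffolds from 13 to 11 higher and from 6 to 5 lower. Axon guidance went from 22 to 21 higher and from 1 to 2 lower, and synaptic adhesion from 21 to 20 higher and from 5 to 3 lower. Glutamate receptors went from 12 to 11 higher and from 4 to 3 lower, GABA receptors from 3 to 2 higher and from 5 to 4 lower, and presynaptic genes from 11 to 10 higher and from 15 to 16 lower. Chromatin regulators went from 10 to 12 higher and tubulins from 9 to 10 lower. Chaperones went from 7 to 6 higher and from 9 to 10 lower, motors from 8 to 7 in each direction, and immediate early genes from 5 to 4 higher. The spliceosome went from 8 to 7 higher, relatives and partners of Foxp2 from 7 to 6 higher, and genes linked to Foxp2 in earlier work from 4 to 3 higher.

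**Figure D3:**
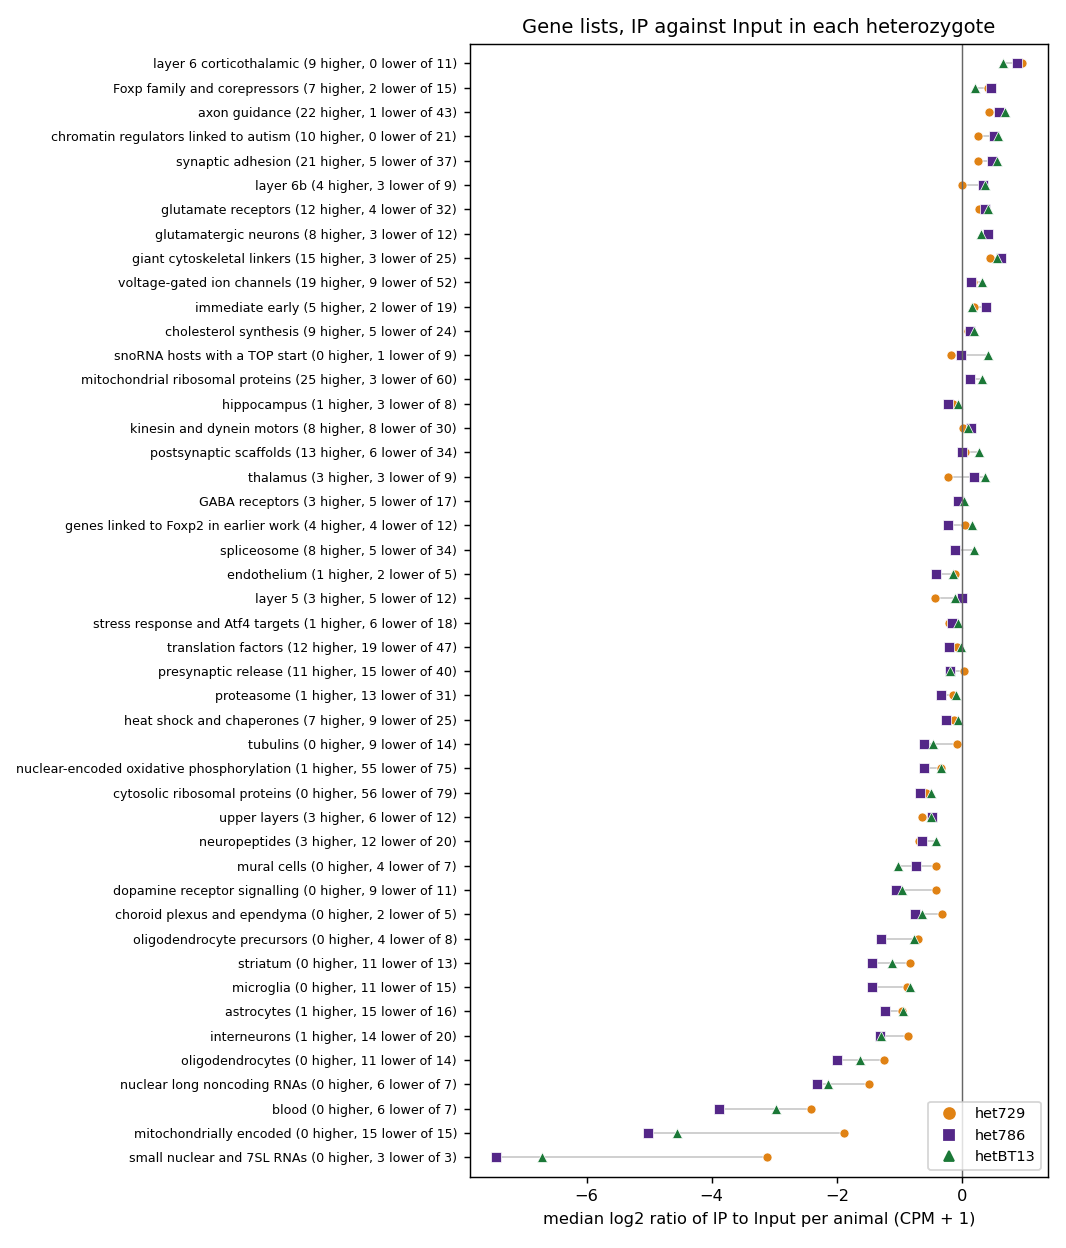
Median log2 ratio of IP to Input (CPM with 1 added) of each of the 46 gene lists in het729, het786 and hetBT13, ordered by the median of the fitted fold change, with the number of members called higher and lower beside each name. Layer 6 corticothalamic genes stand at the top and the 7SL, mitochondrially encoded, blood and nuclear noncoding lists at the bottom, and het729 has the ratio nearest to 0 in these 4 bottom lists.

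Over protein-coding genes as a whole the ratio rose with length. When 12554 of them were put into 5 groups by summed exon length, the median log2 fold change was 0.04, 0.08, 0.07, 0.13 and 0.24 from the shortest group (258 to 2598 bases) to the longest (7897 to 123179 bases). The share called higher went from 21.3% to 34.6% and the share called lower from 25.7% to 13.7%. The medians of the longest group were 0.15, 0.26 and 0.23 in het729, het786 and hetBT13, above every other group in each animal, but in hetBT13 the shortest group (0.10) was not the lowest. Without cytosolic ribosomal protein and oxidative phosphorylation genes the groups had medians of 0.07, 0.09, 0.08, 0.13 and 0.24. Across genes, which are not independent replicates and share libraries and depth, Spearman's rho between fold change and exon length was 0.11.

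**Figure D4:**
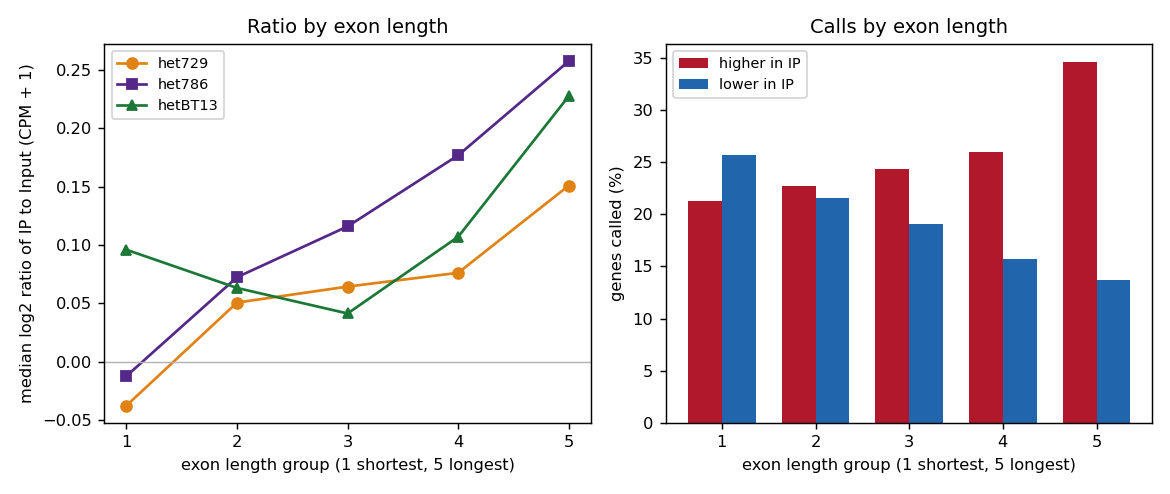
Left, median log2 ratio of IP to Input (CPM with 1 added) in each heterozygote for protein-coding genes in 5 equal groups of summed exon length; right, percentage of each group called higher (red) or lower (blue) in IP. The longest group has the highest median in each of the 3 animals and 34.6% of its genes called higher.

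Changes on the higher side were ranked among called genes with a mean of at least 5 CPM, predicted genes left out. The largest was that of Slc34a2 (ENSMUSG00000029188, chromosome 5, 53038081 to 53071664, plus strand), a phosphate transporter gene best known from lung and gut. It was at 936, 1558 and 284 CPM in IP and at 64.4, 45.9 and 30.6 in Input. Each IP library lay far above the Input libraries, although the IP libraries differed strongly among themselves (log2 4.11, SE 0.98, adjusted p = 0.0154), and without het729 or het786 it was not called (log2 4.28 and 3.59). Tmem255b (ENSMUSG00000038457, chromosome 8, 13435189 to 13468473, plus strand) was at 10.3, 13.5 and 18.5 CPM in IP against 1.33, 1.33 and 0.409 in Input (log2 3.61, SE 0.37, adjusted p = 1.55e-07). Others of the 10 largest were Ntsr1, the aldehyde dehydrogenase gene Aldh3a1 (9.10-fold), the muscle myosin gene Myh3 (6.63-fold), the laminin gene Lama3 (6.98-fold), Cbln1, Plec and Trbj2-3 (6.34-fold).

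Trbj2-3 is a joining segment of the T cell receptor beta locus. The constant segments of that locus, Trbc1 and Trbc2, were 3.35-fold and 3.03-fold higher, and the immunoglobulin heavy chain genes Ighm and Ighg2c 3.17-fold and 2.28-fold. These 4 were looked at after their values had been seen. Ighm was at 243, 302 and 207 CPM in IP against 57.0, 114 and 72.7 in Input, with no overlap between the fractions.

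Relatives and partners of Foxp2 had 7 higher and 2 lower of 15 (median 0.56; 22.6% of all genes were higher and 22.1% lower). Foxp1 (ENSMUSG00000030067, chromosome 6, 98925338 to 99522721, minus strand), a close relative expressed in several cortical layers and in striatum, was at 182, 153 and 160 CPM in IP against 330, 373 and 351 in Input (log2 -1.09, SE 0.12, adjusted p = 2.97e-07). Foxp4 was at 37.9, 41.1 and 30.4 CPM in IP against 23.4, 20.3 and 20.4 in Input (log2 0.77, SE 0.19, adjusted p = 0.00213). Thus the family members differed in direction, and Foxp2, at 0.73, was not called. The corepressor gene Mta1 and the nuclear receptor gene Nr2f2 were 2.34-fold and 1.72-fold higher. Of 12 tested genes linked to Foxp2 in earlier work, 4 were higher (among them Slit1, Sema3e and Plaur) and 4 lower (Foxp1, Nrn1, Mef2c, Ddx1), with a median of -0.04 that turned to 0.23 under library totals and 0.066 without het786.

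Wild types served to ask whether this enrichment depended on the deletion. In the same fit 8010 genes were called in wild types, with 5 pairs in place of 3: 4223 higher (28.5%) and 3787 lower (25.6%). Of these calls 5812 were shared in the same direction (2927 higher and 2885 lower), which is 87.8% of the heterozygous and 72.6% of the wild-type calls, and 1 gene, Gm26588, was called in opposite directions. Across genes, as a description, the fold changes of the genotypes had a Pearson r of 0.89. The 2 sets of animals share no library, but the fit shares its estimate of spread. Layer 6 genes had a median of 0.75 in wild types against 0.78, interneurons -1.10 against -1.29, oligodendrocytes -1.42 against -1.75, cytosolic ribosomal proteins -0.45 against -0.60 and mitochondrially encoded genes -4.37 against -3.79. Without het729 the heterozygous medians of layer 6 and mitochondrially encoded genes were 0.70 and -4.86, so for both the order of the genotypes turned. Ntsr1 had a log2 fold change of 3.09 in wild types and 3.55 in heterozygotes, and Foxp2 0.56 and 0.73.

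The difference between the genotypes, tested as an interaction with edgeR, was called in 0 of 14797 genes (0%). At an unadjusted p below 0.05 there were 454 genes (3.07%), and DESeq2 and limma-voom also called 0. By smallest p the genes leaning higher in heterozygotes were Gm26588, Zfp334, Sox1ot, BC002059 and ENSMUSG00000054165, and those leaning lower were Trim36, Mlc1, Kctd16, Sesn3 and Lrriq1. Trim36, a ubiquitin ligase gene, was at 5.52, 3.38 and 3.28 CPM in heterozygous IP against 17.3, 13.0 and 21.6 in Input, with a log2 fold change of -2.07 against -0.52 in wild types. Mlc1, an astrocyte membrane protein gene, had -1.18 against -0.49. The interaction adjusted p was 1 for Trim36 and for Gm26588, so none of these is a called difference.

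**Figure D5:**
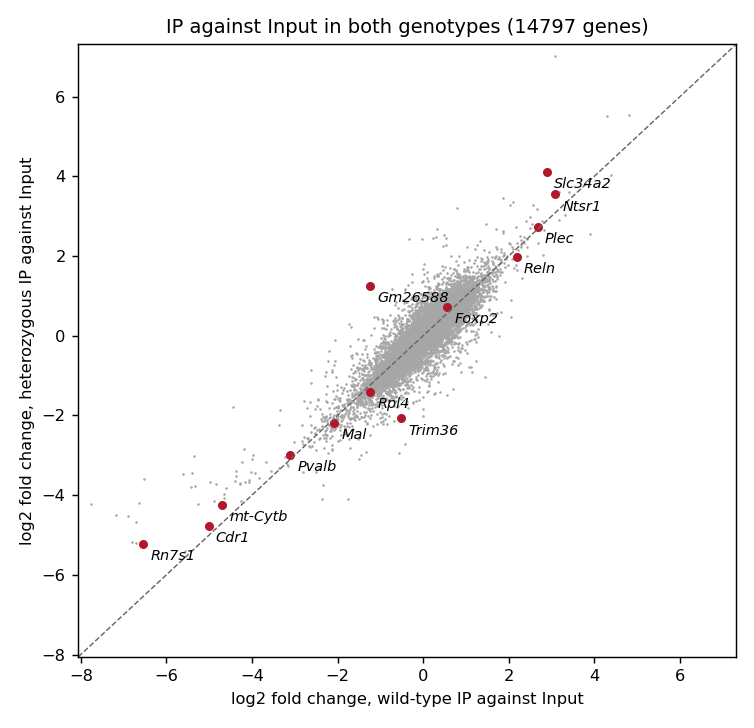
Log2 fold change of IP against Input in heterozygotes (vertical axis) and wild types (horizontal axis), 1 point per tested gene (14797), with 13 genes in red and a dashed line of equality. Most points follow the line, and Gm26588 is the gene called in opposite directions. Rn7s1 lies above the line, with -5.22 in heterozygotes and -6.54 in wild types. Without het729, which is not drawn, the heterozygous value of Rn7s1 was -7.77, below the line.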

How the data were processed

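RNA was measured in 20 libraries made with the Smart-seq2 protocol, which marks neither strand nor single molecules. Per the submitters' processing notes, reads were counted with HTSeq against mm10, and the authors deposited the unnormalized counts of each Ensembl gene. The aligner, the HTSeq version and whether counting used strand are not given in the sources used here. Of 25317 identifiers, 24873 were matched to a name and 444 were not (0.38% to 0.41% of counts). Gene positions are from GENCODE M21. The comparison used the 6 libraries of heterozygotes with both fractions, and 10 of wild types. Another 4 libraries, of heterozygotes without IP and with titles ending in IX or IXX, entered 1 alternative alone.

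The counts were tested with edgeR 4.0.16 (R 4.3.3): filterByExpr (count minimum of 10), TMM scaling, and robust quasi-likelihood F tests in 1 fit of 16 libraries with animal as block, at a Benjamini-Hochberg adjusted p below 0.05. Contrasts were IP against Input in each genotype and their difference. CPM are TMM-scaled, with SD over animals. Folds come from the fitted log2 values. Ratios per animal used log2 of CPM plus 1. The share of mitochondrial counts was compared by an exact paired permutation test. Single-library shares carry 95% Clopper-Pearson intervals. Fits were also run on simulated counts with few changed genes and no compressed library. That setting is simpler than these data, so the run checked the code alone. DESeq2 1.42.0, limma-voom (limma 3.58.1), other scalings and filters, and leaving out each animal served as alternatives.

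Pairing comes from the protocol, since an animal's fractions share 1 lysate. After group means were removed, heterozygous IP and Input of the same animal correlated across 14797 genes with r of 0.15 (het729), 0.059 (het786) and 0.071 (hetBT13), each above the highest r with another heterozygote (-0.018, 0.054 and -0.035). In wild types this held in 4 of 5 animals: wtBT14 had r of 0.079 with its own Input and 0.19 with that of another wild type. Each group mean includes the animal itself, so deviations cancel within a group and a positive own r lowers the others. These values therefore cannot test the pairing, and in het786 the margin was small.

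The 46 gene lists and the members described were chosen with earlier results of these data known, and share some members. The genes named are Ntsr1, Drd1, Cntnap2, Apba2, Foxp1, Foxp2 and Foxp4; in each direction the 10 called genes of largest change that reached a mean of 5 CPM and moved alike in all 3 heterozygotes (predicted genes left out), up to 4 called members of smallest p per list, the 5 genes of smallest p per direction between genotypes, and cell type markers. Some genes that the rule names are not reported here. Genes outside this rule were chosen after their values were seen: Ndufs1, Efnb3, Psma3, Eif2ak3, Snap25, Map1b, Mapt, Rpl14, Rps6, Rpl15, Plaur, Mef2c, Ddx1, Nppc, Scg3, Trbc1, Trbc2, Ighm and Ighg2c. Start windows were read from RefSeq promoters of GRCm38.p6, 250 bases before to 50 after each start.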

Additional observations from a re-analysis of the deposited data

Results flagged for a closer look

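Gm26588 (ENSMUSG00000097730, chromosome 6, 88716422 to 88725860, minus strand), an antisense gene, moved opposite ways in the 2 genotypes: IP was above Input in all 3 heterozygotes and below it in all 5 wild types. It was at 2.49, 2.25 and 5.18 CPM in heterozygous IP against 1.33, 0.665 and 2.04 in Input, with a log2 fold change of 1.26 there and -1.24 in wild types. The log2 difference was 2.49 (SE 0.58), with an unadjusted p of 0.000297 and an adjusted p of 1 with edgeR over all genes tested, so the difference was not called. Its call within heterozygotes ended under several alternatives, among them leaving out het729 (log2 1.45), het786 (1.13) or hetBT13 (1.21). Reads of the overlapping strand cannot be told apart here.

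Zfp334 (ENSMUSG00000017667, chromosome 2, 165374264 to 165388259, minus strand), a zinc finger gene, did the same at a smaller size, with IP above Input in all 3 heterozygotes and below it in all 5 wild types. It was at 31.2, 35.3 and 35.2 CPM in heterozygous IP against 28.7, 27.2 and 29.8 in Input. The log2 difference was 0.78 (SE 0.22; unadjusted p = 0.00171, adjusted p = 1 with edgeR), and the change within heterozygotes was not called (log2 0.24).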

How the results depend on the processing

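The number of genes called in heterozygous IP against Input was 6622, and it ran from 4732 to 7657 over the alternatives, except that 1499 (618 higher, 881 lower) passed when tested against a fold change of 1.5, a stricter question. Leaving out an animal gave 4732 to 5871 calls, and a mitochondrial share difference of -1.43 to -1.18 percentage points against -1.29. Without the replicate block, which pairs the fractions of an animal, 6130 passed (3088 higher, 3042 lower), 7552 in wild types and 0 for the difference between genotypes. Library totals gave 7657 (5757 higher, 1900 lower). The difference between genotypes stayed at 0 calls in every alternative run but 1: with no low-count filter 11 passed (9 higher, 2 lower), namely Slc34a2, Trim36, Ptpn4, mt-Atp6, mt-Atp8, mt-Co3, mt-Nd4l, Rn7s1, Rn7s2, Rn7s6 and Gm24514, which were all tested with the filter too; the cause was not tested.

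Of 643 list medians recomputed, 22 changed sign, 10 of them under library totals, a shift fixed by the scaling: layer 5 (0.20), endothelium (0.21), translation factors (0.12), stress and Atf4 genes (0.12), presynaptic genes (0.10), GABA receptors (0.26), chaperones (0.043), the proteasome (0.086), the spliceosome (0.22) and genes linked to Foxp2 in earlier work (0.23). With upper quartile scaling the medians of motors (-0.0044), postsynaptic scaffolds (-0.012) and thalamic genes (-0.028) fell below 0. The thalamic median was also below 0 without het786 (-0.025) and without hetBT13 (-0.28). The hippocampal median, 0.12 in the main analysis, was -0.0058 with the stricter filter and -0.27 in the 6 heterozygous libraries alone. The other sign changes were those of GABA receptors without the low-count filter (0.02) and without het786 (0.019), of snoRNA hosts with the stricter filter (-0.0027) and without hetBT13 (-0.036), and of genes linked to Foxp2 without het786 (0.066); the cause was not tested. Of the named genes' recomputed changes, 2621 kept direction and side of the threshold, 56 lost a call, 10 gained one and 0 reversed. Genes under a few CPM, such as Gm26588 and Dsp, rest on few reads.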
